A study of Homo sapiens with 8 samples.

Results

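Collagens are the main structural proteins of the extracellular matrix, and each is built from alpha chains encoded by separate genes. Every gene row whose symbol was COL, a number, A and a number was taken as a collagen chain gene, which gave 44 of the 56832 gene rows. By the textbook classes these were 11 fibrillar chains, 6 chains of type IV (the basement membrane collagen), 10 FACIT chains (fibril-associated collagens with interrupted helices) and 17 others. RNA was sequenced from Nthy-ORI cells, an immortalised epithelial line from normal human thyroid. All cells first spent 24 h in phenol-red free medium whose FBS had been charcoal stripped, which removes hormones. They then received T3 (triiodothyronine, the active thyroid hormone) at 10 nM or its NaOH vehicle, and RNA was taken after 6 h or after 24 h, with 2 libraries in each of the 4 groups. The comparisons ask which collagen transcripts differed with T3 at each time, and how the same genes differed between the times. The labels do not say whether the libraries of a group are separate cultures. The spread behind the p-values is that between libraries and may be technical.

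Collagen chains wind around each other as trimers, are modified in the endoplasmic reticulum and are trimmed, assembled and crosslinked outside the cell. Fibrillar collagens such as types I and V form the fibrils of connective tissue, type IV forms the sheet-like network under epithelia, and FACIT chains sit on fibril surfaces. Thyroid follicles rest on a basement membrane of this kind. Thyroid hormone acts through nuclear receptors that bind DNA at motifs built from the hexamer AGGTCA.

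The type IV genes lie in head-to-head pairs, in which neighbours start close together and are read in opposite directions. In RefSeq models on GRCh38.p14 the starts of COL4A1 and COL4A2 on chromosome 13 lay 126 bases apart, those of COL4A4 and COL4A3 on chromosome 2 418 bases apart, and those of COL4A6 and COL4A5 on chromosome X 379 bases apart. The results below turn on these pairs, whose levels at the 2 times are given gene by gene, and on COL6A2 and COL16A1 at 6 h and COL9A2 at 24 h, whose calls with T3 were kept under all 15 alternative fits. The sequences below are the stretch between the 2 starts of the chromosome 13 pair and the 250 bases upstream of the other starts, all by the RefSeq models. The gene positions given further below are from GENCODE 29, whose starts differ. By those positions the stretches of COL16A1 and COL9A2 lie within the genes and the chromosome 13 stretch lies within COL4A2. Those of COL4A3 and COL6A2 reach past the GENCODE starts. They were read from RefSeq at chr13:110307158-110307283 (plus strand), chr2:227164374-227164623 (plus strand), chrX:108439588-108439837 (plus strand), chr21:46097862-46098111 (plus strand), chr1:31704018-31704267 (minus strand) and chr1:40317287-40317536 (minus strand). Capitals mark GC boxes (GGGCGG, or CCGCCC on the other strand), CCAAT boxes (CCAAT or ATTGG) and TATA boxes (TATAAA or TTTATA).
COL4A1-COL4A2: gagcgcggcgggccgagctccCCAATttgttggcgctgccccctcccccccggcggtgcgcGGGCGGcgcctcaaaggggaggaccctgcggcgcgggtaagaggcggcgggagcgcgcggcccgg
COL4A3: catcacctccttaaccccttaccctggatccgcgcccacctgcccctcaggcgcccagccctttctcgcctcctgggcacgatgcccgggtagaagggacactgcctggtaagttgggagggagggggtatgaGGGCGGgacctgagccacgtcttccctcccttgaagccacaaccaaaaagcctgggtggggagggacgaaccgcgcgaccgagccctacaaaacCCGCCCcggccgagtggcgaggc
COL4A5: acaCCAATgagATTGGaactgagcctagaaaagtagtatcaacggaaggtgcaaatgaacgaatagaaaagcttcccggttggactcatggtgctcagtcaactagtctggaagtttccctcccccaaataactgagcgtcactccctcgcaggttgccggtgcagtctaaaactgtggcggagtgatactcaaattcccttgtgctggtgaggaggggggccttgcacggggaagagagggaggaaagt
COL6A2: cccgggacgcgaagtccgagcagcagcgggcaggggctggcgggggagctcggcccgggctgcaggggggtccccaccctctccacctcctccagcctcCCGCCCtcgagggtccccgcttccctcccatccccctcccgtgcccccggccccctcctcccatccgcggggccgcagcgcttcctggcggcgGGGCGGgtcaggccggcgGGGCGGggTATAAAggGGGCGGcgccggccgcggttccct
COL16A1: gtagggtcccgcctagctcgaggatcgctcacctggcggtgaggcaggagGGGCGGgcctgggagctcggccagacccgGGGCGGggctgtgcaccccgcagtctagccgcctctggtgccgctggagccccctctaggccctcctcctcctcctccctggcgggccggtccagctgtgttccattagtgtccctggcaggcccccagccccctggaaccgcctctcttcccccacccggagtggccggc
COL9A2: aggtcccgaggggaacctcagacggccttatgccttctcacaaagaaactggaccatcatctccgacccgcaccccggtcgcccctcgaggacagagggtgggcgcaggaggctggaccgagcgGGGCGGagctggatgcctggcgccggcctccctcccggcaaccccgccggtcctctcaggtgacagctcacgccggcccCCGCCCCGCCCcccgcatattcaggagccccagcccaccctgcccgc

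The interval between COL4A1 and COL4A2 held 1 GC box and 1 CCAAT box in 126 bases with 80.2% G or C. Upstream of COL4A3 there were 2 GC boxes and no CCAAT box, and upstream of COL4A5 2 CCAAT boxes and no GC box. The COL6A2 stretch held 4 GC boxes and 1 TATA box, that of COL16A1 2 GC boxes and that of COL9A2 3 GC boxes, 2 of which share 1 base. RefSeq promoters were found for 32 of the 44 genes. Over their 250 upstream bases, a GC box was present in 18 of the 32, against 42.3% of 27305 promoters, and a CCAAT box in 9, against 33.0%. The receptor hexamer AGGTCA (or TGACCT) was present in 1 of the 32, against 12.1% of all promoters, and a TATA box in 5, against 11.1%. These matches describe letters in a window and say nothing of which factors bind there.

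Reads counted in genes ran from 2517983 to 8201606 per library, so 3 counts corresponded to between 0.366 and 1.19 counts per 1e6 gene counts before TMM scaling. Levels of genes are given as counts per 1e6 gene counts after TMM scaling (CPM). KLF9, a direct target of thyroid hormone receptors, stood at 0.901 and 0.815 CPM with vehicle and at 13.3 and 14.02 CPM with T3 at 6 h. At 24 h it stood at 20.7 and 31.3 CPM in the libraries labelled vehicle and at 2.78 and 3.34 CPM in those labelled T3, which goes against the labels. HR, the other gene taken as a label check, went the same way. It stood at 68.2 and 58.3 CPM with vehicle and 115 and 101 CPM with T3 at 6 h. At 24 h as labelled it stood at 4.28 and 3.87 against 0.309 and 0.115 CPM, on 45 and 3 counts. Every direction at 24 h therefore refers to the libraries as labelled. The 6 h and 24 h libraries stood far apart: 64.5% of the 14611 genes tested differed between the times with vehicle and 70.4% with T3 (adjusted p under 0.05 in edgeR's quasi-likelihood test). The time of treatment cannot be told apart from anything else that differed between these sets of libraries. Of the thyroid markers, TG and TSHR stood at no more than 0.576 CPM in every library, while PAX8 reached 154 CPM, FOXE1 24.9 CPM and HHEX 19.9 CPM. Of the epithelial markers, the keratins KRT7, KRT8 and KRT18 were present in all libraries, whereas CDH1 had 18 counts and KRT19 34 counts over all 8, with KRT19 at 0 counts at 6 h. Gene rows held 12.9% and 15.4% of the reads with vehicle and 16.5% and 17.1% with T3 at 6 h, and 19.5% and 21.7% against 22.8% and 24.4% at 24 h as labelled. Both T3 libraries were thus above both vehicle libraries at each time, and all 24 h libraries above all 6 h libraries. The part of this share in the results was not tested.

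Of the 44 collagen genes, 23 passed the filter on low counts and were tested: 5 of 11 fibrillar genes, 6 of 6 type IV genes, 4 of 10 FACIT genes and 8 of 17 others. The other 21 had at most 53 counts in all 8 libraries together, and COL11A1 and COL22A1 had 0. A mean of at least 5 CPM in some group was reached by 19 genes. COL1A2, the partner chain of COL1A1 in type I collagen, was not among them, with 0 counts in all 4 libraries at 6 h and 40 counts over the 4 libraries at 24 h. COL3A1, the chain of type III collagen, had 1 count in all.

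Collagen genes together took 2916 and 2622 counts per 1e6 gene counts in the vehicle libraries at 6 h and 2016 and 2099 in the T3 libraries. Exact (Clopper-Pearson) 95% intervals, which cover counting error only, ran from 2859 to 2974 and 2560 to 2686 for vehicle, and from 1966 to 2067 and 2061 to 2138 for T3. At 24 h they took 4172 and 3285 in the libraries labelled vehicle (intervals 4108 to 4236 and 3242 to 3328) and 2600 and 2550 in those labelled T3 (intervals 2560 to 2641 and 2516 to 2585). At each time both T3 libraries were below both vehicle libraries, but 2 against 2 libraries cannot go below p = 0.333 in a two-sided exact permutation test. In bulk RNA, fewer cells expressing a gene and less RNA per cell cannot be told apart.

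The fibrillar share of collagen counts was 34.7% and 34.8% with vehicle and 32.1% and 31.4% with T3 at 6 h, and 46.9%, 49.98%, 44.8% and 41.3% in the 24 h libraries in the same order of groups. The type IV share ran from 27.2% to 28.1% at 6 h and from 20.1% to 24.0% at 24 h. The FACIT share was between 9.41% and 13.3% in every library. Every 24 h library therefore had a larger fibrillar share and a smaller type IV share than every 6 h library. The larger fibrillar share was not a rise of the whole class. With vehicle, the group mean of COL1A1 went from 188 CPM at 6 h to 1170 CPM at 24 h. COL5A2 rose from 7.57 to 60.2 CPM and COL11A2 from 2.83 to 5.87 CPM. COL5A1 fell from 729 to 412 CPM and COL27A1 from 59.8 to 42.8 CPM. With T3, COL1A1 rose from 101 to 653 CPM and COL5A1 fell from 556 to 291 CPM.

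**Figure D1:**
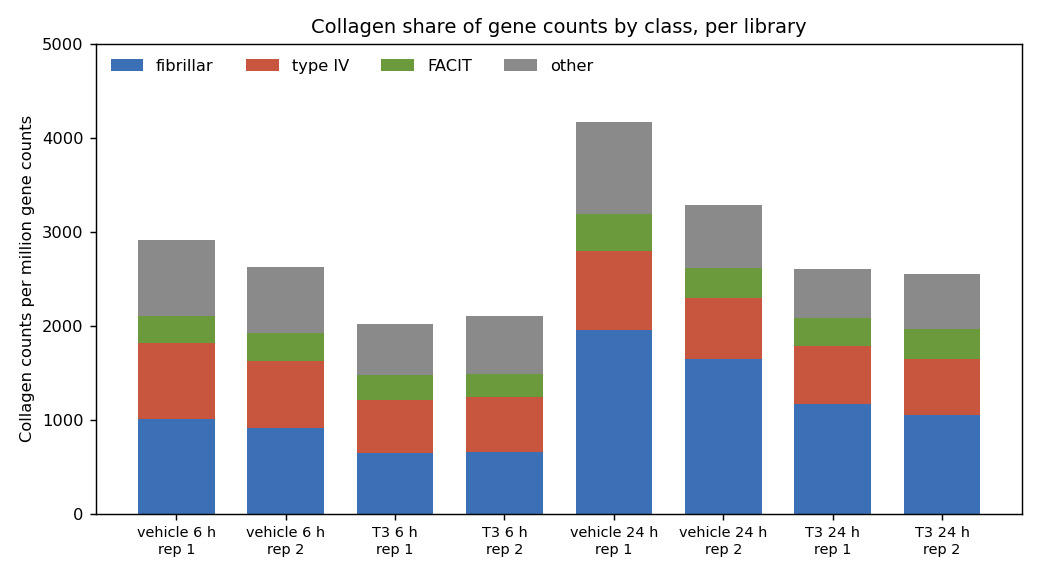
Counts of the 44 collagen genes per 1e6 gene counts (vertical axis) in each of the 8 libraries, stacked by class. The 2 T3 libraries stand below the 2 vehicle libraries at each time, at 2016 and 2099 against 2916 and 2622 at 6 h, and the fibrillar part is largest at 24 h.

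At 6 h, 5 of the 23 collagen genes tested were lower with T3 and 0 were higher. The 5 were COL1A1, the main chain of type I collagen, COL5A1, a chain of type V collagen that regulates fibril formation, COL4A2 of the basement membrane, COL6A2 of the microfibrils of type VI collagen, and the FACIT chain gene COL16A1. That is 21.7% of those tested, against 7.64% of all genes tested called in either direction, 3.86% lower and 3.78% higher. The median log2 fold change of the 23 was -0.37, with 18 of them negative, against -0.02 over all genes tested. At an unadjusted edgeR p under 0.05 the counts were 9 lower and 0 higher, and DESeq2 called 5 lower and 0 higher of the 18 for which it gave an adjusted p. The shares of all genes at that unadjusted p and with DESeq2 are not given here, so these counts have no background beside them. By class, 2 of 5 fibrillar, 1 of 6 type IV, 1 of 4 FACIT and 1 of 8 other genes fell.

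COL6A2 (ENSG00000142173.14, chr21:46098097-46132849, plus strand, GRCh38) stood at 21.0 and 25.3 CPM with vehicle and at 5.77 and 5.81 CPM with T3. The groups did not overlap, and the log2 fold change was -1.98 (SE 0.31, edgeR adjusted p = 0.00128). Its partner COL6A1, which lies beside it on chromosome 21, stood at 45.6 and 38.7 CPM with vehicle and 29.6 and 27.5 CPM with T3. The COL6A1 groups did not overlap either, but the log2 fold change of -0.58 (SE 0.20) missed the threshold (edgeR adjusted p = 0.0899). The third classical chain of type VI, COL6A3, had 14 counts in all libraries together and was not tested.

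COL16A1 (ENSG00000084636.17, chr1:31652247-31704319, minus strand) stood at 32.7 and 26.9 CPM with vehicle and 10.8 and 11.2 CPM with T3. Both T3 libraries were below both vehicle libraries, with a log2 fold change of -1.44 with an SE of 0.21 (edgeR adjusted p = 0.000993). The other FACIT genes tested showed no such difference at 6 h: COL12A1 stood at 246 and 262 CPM with vehicle and 267 and 245 CPM with T3, overlapping, with a log2 fold change of 0.01 (SE 0.12). COL9A2, a chain of the cartilage collagen type IX, stood at 6.60 and 6.93 CPM against 6.13 and 5.81 CPM, and COL9A3 at 10.2 and 6.93 CPM against 8.29 and 5.41 CPM. Their edgeR adjusted p-values were 0.84 and 0.66.

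COL1A1 (ENSG00000108821.13, chr17:50183289-50201632, minus strand) stood at 187 and 189 CPM with vehicle and 97.7 and 104 CPM with T3 at 6 h. The vehicle libraries were the higher ones without overlap, and the log2 fold change was -0.90 (SE 0.13, edgeR adjusted p = 0.000668). COL5A1 (ENSG00000130635.15, chr9:134641774-134844843, plus strand) stood at 773 and 685 CPM against 552 and 560 CPM, a log2 fold change of -0.39 with an SE of 0.11 (edgeR adjusted p = 0.0465). COL5A2, the chain that joins COL5A1 in type V trimers, stood at 7.81 and 7.34 CPM against 4.33 and 3.81 CPM, without overlap. Its log2 fold change of -0.92 (SE 0.32) did not pass (edgeR adjusted p = 0.0874). COL27A1 and COL11A2 overlapped between the groups, at 70.3 and 49.3 against 51.9 and 47.9 CPM and at 2.40 and 3.26 against 2.88 and 1.60 CPM.

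Among the type IV genes at 6 h, COL4A2 (ENSG00000134871.18, chr13:110305812-110513209, plus strand) stood at 477 and 419 CPM with vehicle and 319 and 327 CPM with T3. It fell by 0.47 on the log2 scale (SE 0.12, edgeR adjusted p = 0.0246). COL4A1, which shares its promoter and its trimers, stood at 220 and 197 CPM against 183 and 192 CPM, with a log2 fold change of -0.15 (SE 0.12) that did not pass (edgeR adjusted p = 0.48). COL4A3, COL4A4 and COL4A5, the chains of the specialised network best known from kidney glomeruli, had edgeR adjusted p-values of 0.545, 0.398 and 0.856. COL4A3 stood at 9.91 and 10.6 against 8.29 and 6.21 CPM and COL4A4 at 54.0 and 47.7 against 43.6 and 39.7 CPM, both without overlap, and COL4A5 overlapped, at 68.5 and 56.2 against 64.5 and 67.3 CPM. COL4A1 and COL4A2 overlap on opposite strands, and whether the counting used strand is not given in the sources used here, so reads of the overlap cannot be assigned.

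The remaining tested genes at 6 h included COL7A1, the anchoring fibril collagen of epithelia, at 696 and 588 CPM with vehicle and 508 and 588 CPM with T3, overlapping. COL18A1, a basement membrane collagen whose end fragment is endostatin, stood at 57.6 and 54.2 CPM against 33.2 and 36.3 CPM, without overlap, at the edge of the threshold (log2 fold change -0.68, SE 0.21, edgeR adjusted p = 0.0518). COL8A1, a short-chain network collagen, stood at 2.702 and 4.48 CPM against 1.44 and 1.60 CPM and did not pass (edgeR adjusted p = 0.207). COL15A1, COL25A1 and COL8A2 were at group means of at most 3.73 CPM at 6 h and none passed.

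COL1A1, COL6A2 and COL16A1 kept their calls at 6 h under all 15 alternatives tried. COL4A2 dropped out of the calls when vehicle replicate 1 or either T3 replicate of 6 h was omitted (edgeR adjusted p = 0.299, 0.267 and 0.201). COL5A1 lost it without any 1 of the 4 libraries at 6 h (0.394 and 0.0755 without vehicle replicates 1 and 2, 0.369 and 0.302 without T3 replicates 1 and 2) and without T3 replicate 1 or 2 of 24 h (0.0657 and 0.0649), and with no filter on low counts (0.161). The exons of the tested collagen genes held a median of 61.1% G or C, against 48.0% over the annotated genes tested. After removal of each library's trend with GC content and length, the median log2 fold change of the 23 genes was -0.08, and 3 were called (COL1A1 -0.59, COL6A2 -1.64 and COL16A1 -1.11 on the log2 scale), against 459 of the 12577 genes in that fit (3.65%, with 2.41% lower and 1.24% higher). COL4A2 and COL5A1 stood at log2 fold changes of -0.10 and -0.08 in that fit (edgeR adjusted p = 0.671 and 0.719).

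The 3 genes with the firmest calls were all lower at 6 h than at 24 h, so that the T3 libraries at 6 h lay farther from the 24 h levels than the vehicle libraries did. PAX8, a thyroid transcription factor, moved the same way: 9.91 and 13.4 CPM with vehicle and 4.33 and 4.01 CPM with T3 at 6 h, against 107 to 154 CPM in the 24 h libraries. Of the fibroblast and stromal markers, whose summed level was 39.9 to 42.0 CPM with vehicle and 28.4 to 32.1 CPM with T3 at 6 h, PDGFRB stood at 22.5 and 22.0 CPM against 14.4 and 13.2 CPM. DCN was also lower with T3, at 3.603 and 2.445 CPM with vehicle against 1.803 and 2.003 CPM. FAP stood at 3.002 and 4.483 CPM with vehicle against 1.803 and 2.204 CPM with T3. LUM was lower with T3 too, on 4 counts with vehicle against 2. None of these markers overlapped between the groups. TWIST1 stood higher with T3, at 7.93 and 6.21 against 5.40 and 5.30 CPM. ACTA2 overlapped, at 6.91 and 4.89 against 6.13 and 4.41 CPM, and PDGFRA and THY1 were at 0 counts in all 4 libraries. The part of these differences in the collagen results was not tested.

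**Figure D2:**
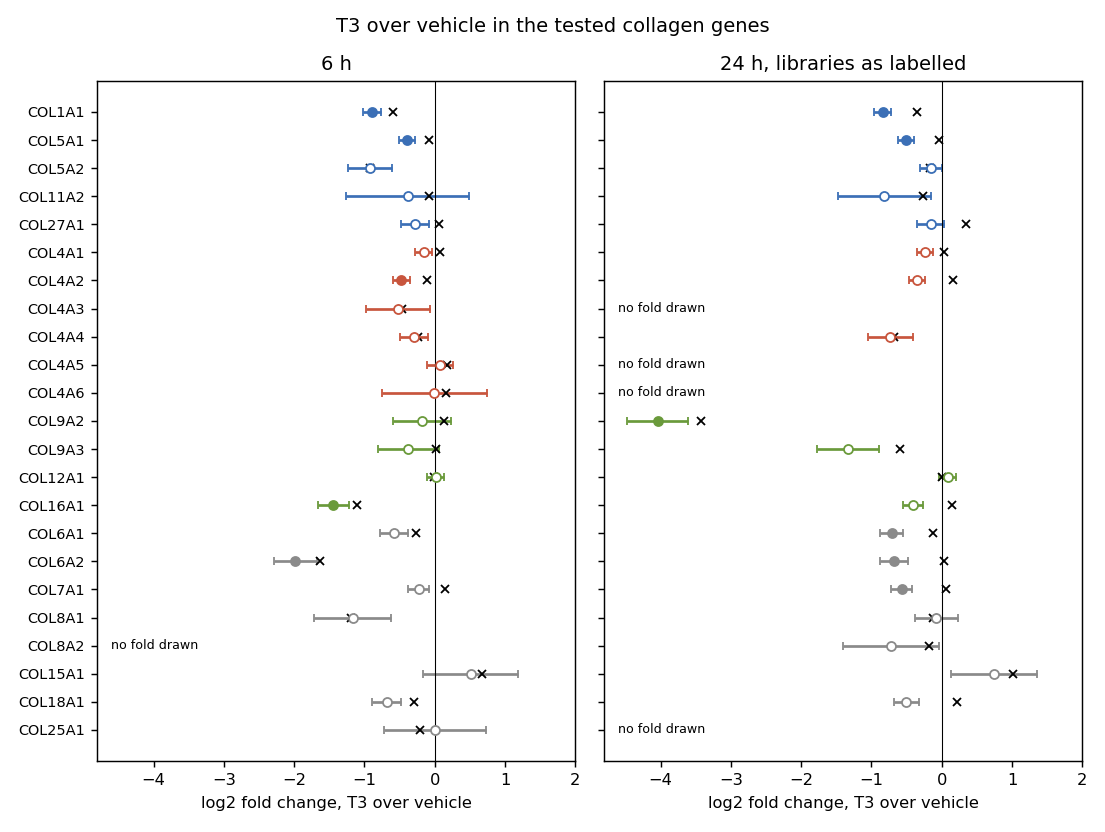
Log2 fold change of T3 over vehicle (horizontal axis) for the 23 tested collagen genes at 6 h and at 24 h as labelled, coloured by class (blue fibrillar, red type IV, green FACIT, grey other). Filled circles passed an edgeR adjusted p under 0.05, bars are 1 SE, crosses are values after GC and length correction, and no fold is drawn where the lower group held at most 3 counts; 5 genes are filled at 6 h, and the crosses at 24 h lie near 0 for most genes apart from COL9A2 at -3.42.

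At 24 h, 7 of the 23 tested genes were lower in the libraries labelled T3 and 0 were higher. They were COL1A1, COL5A1, the type IV chain gene COL4A3, both type VI genes COL6A1 and COL6A2, COL7A1 and COL9A2. The share called was 30.4%, against 13.3% of all genes tested, of which 7.76% were lower and 5.58% higher. The median log2 fold change was -0.50 against -0.01 over all genes. At an unadjusted edgeR p under 0.05 the counts were 13 lower and 0 higher, and DESeq2 called 6 lower and 0 higher of 18, again without the shares of all genes. COL1A1, COL5A1 and COL6A2 were called lower with T3 at 6 h and again in the libraries labelled T3 at 24 h. The share of all genes called lower at both times is not given here.

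COL9A2 (ENSG00000049089.14, chr1:40300487-40317813, minus strand) had the largest fold among the tested collagen genes with more than 3 counts in each group. It stood at 12.8 and 15.6 CPM in the libraries labelled vehicle and at 0.463 and 1.15 CPM in those labelled T3, on 162 and 13 counts. The log2 fold change was -4.04 (SE 0.43, edgeR adjusted p = 0.000119), and -4.88 without T3 replicate 2. Its partner COL9A3 stood at 6.30 and 4.76 CPM against 1.85 and 2.42 CPM, without overlap, but did not pass (log2 fold change -1.33, SE 0.44, edgeR adjusted p = 0.0556). The third chain of type IX, COL9A1, had 2 counts in all libraries together. COL9A3 overlaps TCFL5 on the opposite strand, which held 2417 counts against 194 for COL9A3.

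COL4A3 (ENSG00000169031.19, chr2:227164565-227314792, plus strand) had 7 and 11 counts (1.58 and 1.64 CPM) in the libraries labelled vehicle and 0 in both labelled T3. Set against 3 counts over the T3 group, it was at least 8.15-fold lower (edgeR adjusted p = 0.00396). COL4A4, which starts 418 bases from it, stood at 3.83 and 3.87 CPM against 2.32 and 2.30 CPM. These groups did not overlap, and COL4A4 did not pass (log2 fold change -0.73, SE 0.32, edgeR adjusted p = 0.142). COL4A1 and COL4A2 did not pass either, at 333 and 303 against 274 and 263 CPM and at 413 and 353 against 307 and 292 CPM.

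COL1A1 stood at 1221 and 1118 CPM in the libraries labelled vehicle and 700.4 and 606 CPM in those labelled T3, a log2 fold change of -0.84 with an SE of 0.12 (edgeR adjusted p = 0.000696). COL5A1 stood at 411 and 412 CPM against 289 and 293 CPM, a log2 fold change of -0.50 with an SE of 0.11 (edgeR adjusted p = 0.00987). In both genes the libraries labelled vehicle were the higher ones without overlap. COL5A2 stood at 60.8 and 59.6 CPM against 57.6 and 50.7 CPM and did not pass (edgeR adjusted p = 0.57).

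COL6A1 stood at 77.4 and 109 CPM against 55.0 and 59.4 CPM (log2 fold change -0.71, SE 0.17, edgeR adjusted p = 0.0113), and COL6A2 at 81.3 and 58.8 CPM against 35.5 and 51.1 CPM (-0.68, SE 0.20, edgeR adjusted p = 0.0333). COL7A1 stood at 597 and 424 CPM against 327 and 360 CPM (-0.57, SE 0.15, edgeR adjusted p = 0.0217). None of the 3 overlapped between the groups, although the vehicle libraries of each lay far apart. COL16A1, called at 6 h, stood at 155 and 126 CPM against 99.3 and 112 CPM and missed the threshold (log2 fold change -0.41, SE 0.14, edgeR adjusted p = 0.0657). COL18A1 stood at 94.5 and 60.2 CPM against 52.3 and 55.9 CPM (edgeR adjusted p = 0.0735). COL8A1, COL12A1, COL27A1 and COL11A2 overlapped between the groups, at 14.2 and 11.3 against 10.2 and 13.7 CPM, 173 and 169 against 172 and 190 CPM, 36.9 and 48.7 against 34.4 and 42.6 CPM, and 6.53 and 5.21 against 6.18 and 0.691 CPM.

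COL9A2 kept its call at 24 h under all 15 alternatives. After GC and length correction only COL9A2 (log2 fold change -3.42, edgeR adjusted p = 0.000977) and COL4A3 (edgeR adjusted p = 0.0212) were called, against 169 of 12577 genes (1.34%, with 0.779% lower and 0.565% higher). COL1A1 then stood at a log2 fold change of -0.35 (edgeR adjusted p = 0.102), COL5A1 at -0.04 and COL6A1 at -0.13, and COL6A2 and COL7A1 turned to 0.03 and 0.07. COL4A3 lost its call when only the 24 h libraries were fitted (edgeR adjusted p = 0.0527). COL6A1 dropped out of the calls when vehicle replicate 2 of 24 h was omitted (edgeR adjusted p = 0.119). COL7A1 lost it when replicate 1 of either 24 h group was omitted (vehicle 0.111, T3 0.0904). COL6A2 lost it with DESeq2 (0.108), with only the 24 h libraries fitted (0.0753), when vehicle or T3 replicate 1 of 24 h was omitted (0.198 and 0.151) and when vehicle replicate 1 (0.0517) or T3 replicate 1 or 2 (0.0574 and 0.0578) of 6 h was.

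The T3 differences at the 2 times were compared directly by the interaction term of the edgeR fit. COL9A2 was lower at 24 h as labelled and near its vehicle level at 6 h, a difference of -3.86 on the log2 scale (SE 0.61, edgeR adjusted p = 0.00305), or -4.70 without T3 replicate 2 of 24 h. COL4A3 was the other gene called (edgeR adjusted p = 0.0381), on 0 counts in the libraries labelled T3 at 24 h. These were 2 of 23 genes, both lower, against 1.84% of all genes tested (0.992% lower and 0.849% higher). COL4A3 lost this call without vehicle replicate 1 or 2 of 6 h (0.118 and 0.108), T3 replicate 1 or 2 of 6 h (0.129 and 0.127), vehicle replicate 2 of 24 h (0.0602) or T3 replicate 2 of 24 h (0.0812). The difference for COL16A1 (1.03, SE 0.26, edgeR adjusted p = 0.051) and for COL6A2 (1.30, SE 0.37, edgeR adjusted p = 0.0809) missed the threshold, and both passed after GC and length correction (0.0107 and 0.034). In that fit 2 genes were called higher and 2 lower, against 2.42% of all genes (1.43% higher and 0.986% lower). At an unadjusted edgeR p under 0.05, 3 genes were higher and 2 lower, and the share of all genes at that p is not given here.

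Between the times, the collagen set changed in make-up. With vehicle, 10 of the 23 tested genes were higher at 24 h and 8 lower, and with T3 9 were higher and 10 lower. The background was large too: 31.9% of all genes tested were higher and 32.6% lower with vehicle (64.5% in all), and 35.1% higher and 35.2% lower with T3 (70.4% in all). After GC and length correction 13 were higher and 7 lower with vehicle, and 12 higher and 8 lower with T3, against 29.3% and 31.9% of all genes in that fit with vehicle (61.3% in all) and 32.8% and 34.7% with T3 (67.5% in all). The 2 time comparisons share no library, and 9 of the 23 were higher in both, 7 lower in both and 1, COL9A2, opposite. Of all genes tested, 28.4% were higher in both, 29.4% lower in both and 0.164% opposite. The summed level of the epithelial markers was 1060 to 1230 CPM at 6 h and 403 to 573 CPM at 24 h. That of the fibroblast and stromal markers was 39.9 to 42.0 CPM at 6 h and 31.1 to 33.9 CPM at 24 h with vehicle. With T3 the stromal sum was 28.4 to 32.1 CPM at 6 h and 29.4 to 33.4 CPM at 24 h, overlapping. Of the stromal markers, DCN and FAP, present at 6 h, had 0 counts in all 4 libraries at 24 h. TWIST1 was also lower at 24 h under both treatments, whereas PDGFRB was higher under both. The part of these differences in the collagen results was not tested. All values below are fold changes of 24 h over 6 h, first with vehicle and then with T3.

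**Figure D3:**
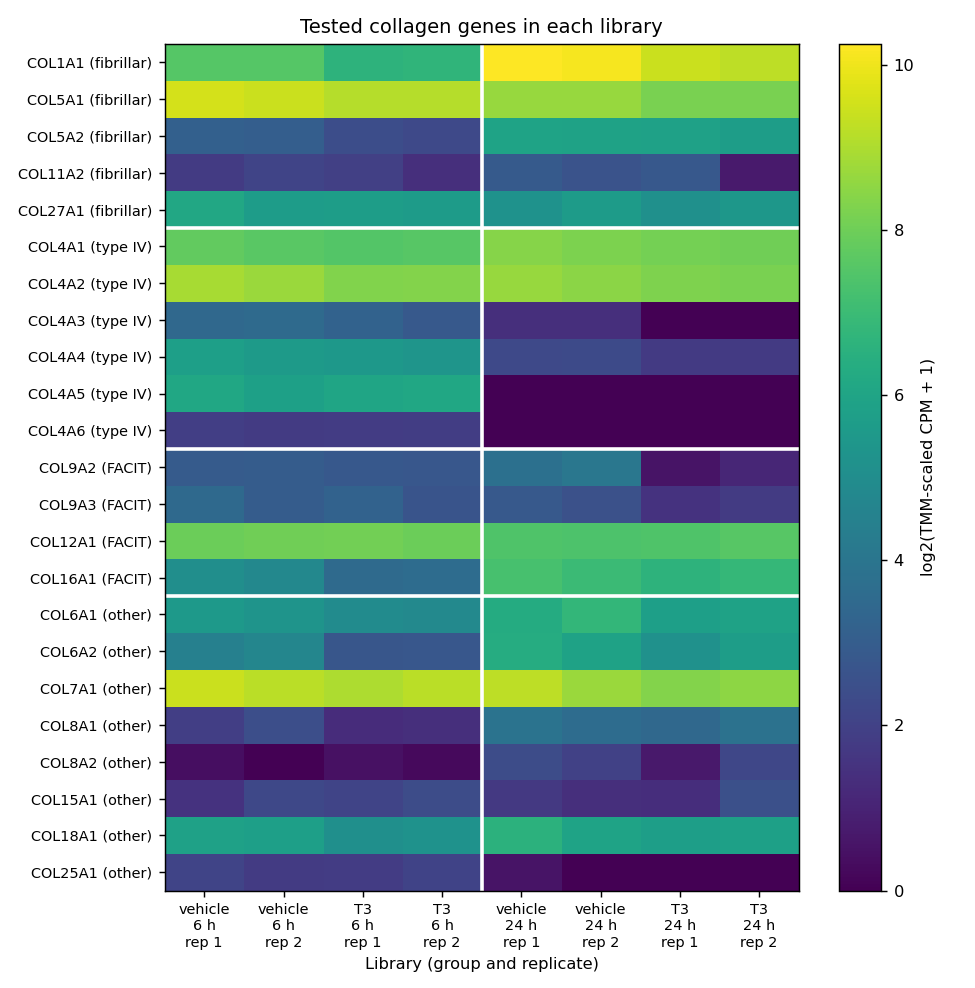
Level of each of the 23 tested collagen genes (rows, grouped by class) in each of the 8 libraries (columns), as log2 of TMM-scaled CPM plus 1. COL1A1, COL5A2, COL6A2 and COL16A1 are brighter in the 4 libraries at 24 h, and COL4A3 to COL4A6 are darker there, with COL4A5 and COL4A6 at 0.

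Among the fibrillar genes, COL1A1 and COL5A2 rose. COL1A1 went from 187 and 189 CPM at 6 h to 1221 and 1118 CPM at 24 h with vehicle, a log2 fold change of 2.64 with an SE of 0.13 (edgeR adjusted p = 2.23e-11), and by 2.69 with T3. COL5A2 went from 7.81 and 7.34 CPM to 60.8 and 59.6 CPM, a log2 fold change of 2.98 with an SE of 0.22 (edgeR adjusted p = 4.47e-09), and by 3.75 with T3. Its partner COL5A1 went the other way, from 773 and 685 CPM to 411 and 412 CPM, a log2 fold change of -0.82 with an SE of 0.11 (edgeR adjusted p = 7.65e-06) with vehicle and -0.94 with T3. After GC and length correction COL5A1 stood at -0.28 and -0.23 (edgeR adjusted p = 0.0193 and 0.0389). The 6 h and 24 h libraries of these 3 genes did not overlap under either treatment. COL27A1 had log2 fold changes of -0.48 (edgeR adjusted p = 0.0411) and -0.36 (edgeR adjusted p = 0.106). With vehicle it dropped out when vehicle replicate 1 of 6 h or of 24 h was omitted (0.551 and 0.263), without T3 replicate 1 or 2 of 6 h (0.0718 and 0.0652) and with DESeq2 (0.111), and GC and length correction turned it to 0.14.

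The type IV genes are given by pair, and COL4A1 and COL4A2 differed from each other. COL4A1 rose slightly, from 220 and 197 CPM to 333 and 303 CPM with vehicle (log2 fold change 0.60, SE 0.12, edgeR adjusted p = 0.000241) and by 0.51 with T3. COL4A2 did not pass at -0.23 and -0.11 (edgeR adjusted p = 0.10 and 0.425), and was called higher after GC and length correction, at 0.40 and 0.67. COL4A4 fell from 54.0 and 47.7 CPM to 3.83 and 3.87 CPM with vehicle (log2 fold change -3.72, SE 0.25, edgeR adjusted p = 1.06e-09) and by 4.15 on the log2 scale with T3. COL4A3 fell with it, from 9.91 and 10.6 CPM to 1.58 and 1.64 CPM with vehicle (log2 fold change -2.65, SE 0.51, edgeR adjusted p = 0.000268). With T3, COL4A3 went from 54 counts to 0, at least 35.1-fold lower.

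COL4A5 (ENSG00000188153.13, chrX:108439844-108697545, plus strand) and COL4A6 (ENSG00000197565.15, chrX:108155607-108439497, minus strand) had 0 counts in all 4 libraries at 24 h. COL4A5 had 228 and 138 counts with vehicle and 179 and 336 with T3 at 6 h, so it was at least 235-fold lower with vehicle and at least 335-fold lower with T3. COL4A6 had 15 and 20 counts over the groups at 6 h, at least 9.65-fold and 13.0-fold lower. All 4 edgeR adjusted p-values were at most 0.000956. Expressed genes on either side of the pair, picked after these values were seen, had counts at both times. On one side PSMD10 stood at 34.4 to 49.4 CPM and ATG4A at 9.11 to 13.0 CPM in the 24 h libraries, and on the other NXT2 stood at 10.6 to 27.5 CPM and ACSL4 at 165 to 235 CPM.

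**Figure D4:**
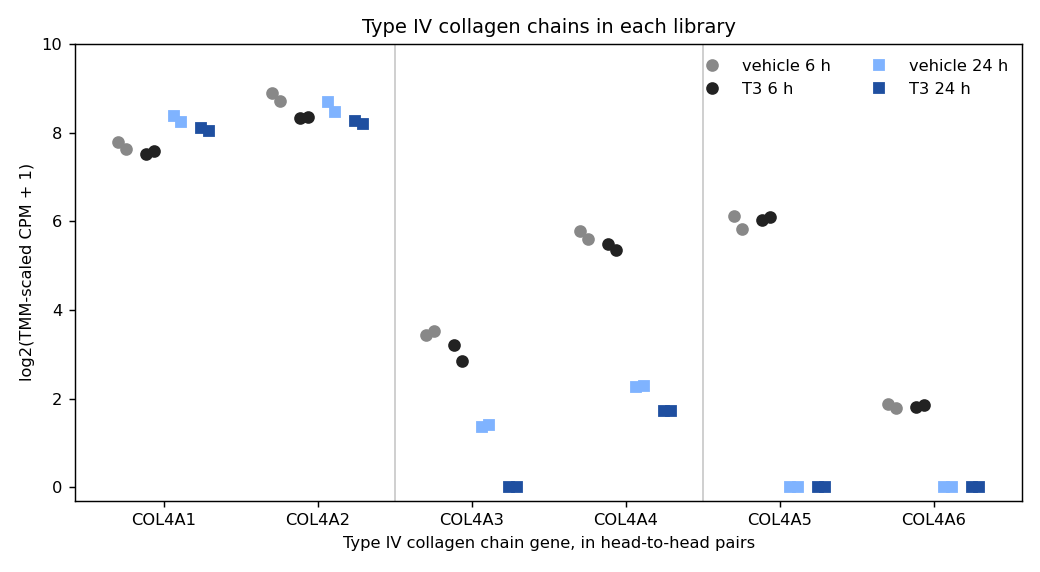
Level of the 6 type IV chain genes in each library, as log2 of TMM-scaled CPM plus 1 (vertical axis), with the head-to-head pairs separated by grey lines, circles for 6 h and squares for 24 h. COL4A1 and COL4A2 stay at 183 CPM or more in every library, COL4A3 and COL4A4 drop at 24 h, and COL4A5 and COL4A6 drop to 0.

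Of the FACIT genes, COL16A1 rose from 32.7 and 26.9 CPM to 155 and 126 CPM with vehicle (log2 fold change 2.22, SE 0.17, edgeR adjusted p = 5.83e-09) and by 3.25 with T3. COL12A1, which binds type I fibrils, fell from 246 and 262 CPM to 173 and 169 CPM (log2 fold change -0.57, SE 0.12, edgeR adjusted p = 0.000441) and by 0.50 on the log2 scale with T3, and stood at -0.99 and -0.98 after GC and length correction. COL9A2 rose with vehicle (log2 fold change 1.08, SE 0.37, edgeR adjusted p = 0.0178) and fell with T3 (-2.78, SE 0.48, edgeR adjusted p = 6.05e-05; -3.61 without T3 replicate 2 of 24 h). After GC and length correction the values were 2.33 and -1.23. The rise lost its call with DESeq2 (0.108) and without vehicle replicate 1 or 2 of 6 h or vehicle replicate 2 of 24 h (0.114, 0.074 and 0.139). COL9A3 did not pass with vehicle and fell by 1.62 on the log2 scale with T3 (edgeR adjusted p = 0.00419). It lost that call without T3 replicate 1 of 6 h (0.0543), and GC and length correction turned the value to 0.21.

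Among the others, both type VI genes rose. COL6A1 rose by 1.15 (SE 0.18, edgeR adjusted p = 3.22e-05) and 1.01 on the log2 scale, and COL6A2 by 1.60 (SE 0.23, edgeR adjusted p = 1.05e-05) and 2.90. After GC and length correction these were 2.20 and 2.35 for COL6A1 and 2.94 and 4.60 for COL6A2. COL8A1 rose from 2.702 and 4.48 CPM to 14.2 and 11.3 CPM with vehicle (log2 fold change 1.85, SE 0.40, edgeR adjusted p = 0.000613) and by 2.94 with T3. COL8A2 rested on 1 count at 6 h with vehicle against 39 at 24 h, a ratio of 20.2 (counting interval 3.42 to 819), and on 2 counts against 35 with T3, a ratio of 8.96 (2.30 to 76.9). It dropped out when vehicle replicate 2 of 6 h was omitted (edgeR adjusted p = 0.0631) in the vehicle comparison, and without T3 replicate 1 or 2 of 6 h or T3 replicate 2 of 24 h (0.075, 0.191 and 0.429) in the T3 comparison.

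COL25A1, a transmembrane collagen, fell from 17 counts to 2 with vehicle, a ratio of 16.4 (3.89 to 146), and from 23 counts to 0 with T3, at least 15.0-fold. With vehicle it dropped out when vehicle replicate 1 of 6 h or replicate 2 of 24 h was omitted (edgeR adjusted p = 0.0924 and 0.117). COL18A1 rose by 0.45 (edgeR adjusted p = 0.046) and 0.63 (edgeR adjusted p = 0.008) on the log2 scale. The first call was lost with DESeq2 (0.123) and without vehicle replicate 1 or 2 of 6 h (0.127 and 0.17), T3 replicate 1 or 2 of 6 h (0.0566 and 0.0581) or vehicle replicate 1 of 24 h (0.573), and with only the vehicle libraries fitted (0.0551). The second was lost without T3 replicate 1 of 6 h (0.0666). GC and length correction raised both, to 1.79 and 2.30 (edgeR adjusted p = 7.23e-07 and 3.56e-08). COL7A1 had a log2 fold change of -0.33 with vehicle that did not pass (edgeR adjusted p = 0.0639) and fell by 0.68 on the log2 scale with T3 (edgeR adjusted p = 0.000798). GC and length correction turned both to values called higher, 0.67 and 0.58 (edgeR adjusted p = 0.000585 and 0.00133). COL15A1 did not pass in any comparison. COL18A1 overlaps SLC19A1 on the opposite strand, which held 1637 counts against 2246 for COL18A1.

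Levels of different genes were compared per kilobase of exon, as mean CPM of a group. With vehicle at 6 h, COL5A1 led at 65.1 CPM per kilobase, followed by COL7A1 at 58.0, COL4A2 at 23.2, COL12A1 at 20.3, COL1A1 at 19.1 and COL4A1 at 14.2. With T3 at 6 h COL5A1 and COL7A1 stood at 49.7 and 49.5. At 24 h COL1A1 led at 119 in the libraries labelled vehicle and 66.5 in those labelled T3, with COL7A1 at 46.1 and 31.0 and COL5A1 at 36.8 and 26.0. COL1A1 thus moved from the fifth place at 6 h with vehicle to the first at 24 h.

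Chains that assemble together were not present in fixed proportion. At 6 h the level of COL1A1 per kilobase was at least 103 to 236 times that of COL1A2, which had 0 counts, and at 24 h it was 569 to 771 times as high, whereas type I collagen is classically built from both chains. The per-kilobase ratio of COL5A1 to COL5A2 was 62.2 to 98.1 in the 4 libraries at 6 h and 3.34 to 4.61 in the 4 at 24 h. For COL4A1 over COL4A2 it was 0.603 and 0.616 with vehicle and 0.752 and 0.770 with T3 at 6 h, and 1.06 to 1.18 at 24 h. The ratio of COL6A1 to COL6A2 was 2.19 and 1.54 with vehicle and 5.17 and 4.76 with T3 at 6 h, and 0.961 to 1.87 at 24 h. At 6 h COL4A5 stood 17.99 to 20.2 times as high as COL4A6, on 6 to 13 counts of COL4A6 per library (counting intervals from 8.06 to 50.5). COL4A3 stood at 0.173 to 0.245 of COL4A4 (counting intervals from 0.114 to 0.378). For COL5A1 over COL5A2 and COL4A1 over COL4A2, the 6 h and 24 h ratios did not overlap. All these ratios use counts without the correction of trends with GC content and length. After it, log2 fold changes of 24 h over 6 h with vehicle and T3 were 0.77 and 0.73 for COL4A1. They were 0.40 and 0.67 for COL4A2, nearer to COL4A1 than without correction. COL5A1 then stood at -0.28 and -0.23 and COL5A2 at 2.81 and 3.57.

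The machinery around collagen was followed in 62 genes for chain modification and processing, crosslinking, receptors and turnover, of which 53 were tested. At 6 h, 4 were lower and 2 higher with T3 (11.3% of those tested, against 7.64% of all genes tested). The gelatinase MMP2 stood at 7.51 and 8.15 CPM with vehicle and 1.80 and 1.20 CPM with T3 (log2 fold change -2.43, edgeR adjusted p = 0.00283), and MMP14, which activates it, at 15.3 and 17.5 against 7.21 and 4.61 CPM (-1.54, edgeR adjusted p = 0.00396). The crosslinking transglutaminase TGM2 and the collagen uptake receptor MRC2 were also lower (log2 fold changes -1.70 and -0.84, edgeR adjusted p = 0.0179 and 0.00281). The lysyl hydroxylase PLOD2 and the procollagen protease TLL1 were higher (0.50 and 0.68, edgeR adjusted p = 0.0288 and 0.0263), and both lost their calls after GC and length correction (0.664 and 0.152).

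Leaving out 1 library of 6 h ended each of these 6 calls for some library. MMP2 and MMP14 lost theirs without T3 replicate 2 (edgeR adjusted p = 0.0907 and 0.133), and MRC2 when replicate 1 of either group was omitted (0.051 and 0.0829). TGM2 and PLOD2 lost theirs when vehicle replicate 1 or either T3 replicate was omitted (0.334, 0.153 and 0.119 for TGM2; 0.354, 0.288 and 0.133 for PLOD2). TLL1 lost it without any of the 4 (0.175 and 0.131 without vehicle replicates 1 and 2, 0.304 and 0.122 without T3 replicates 1 and 2).

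At 24 h as labelled, 15 of the 53 were lower and 2 higher (32.1% of those tested, against 13.3% of all genes, 7.76% lower and 5.58% higher), among them 9 of 30 processing genes lower. The lysyl hydroxylase gene PLOD1 stood at 47.5 and 40.4 CPM against 23.6 and 23.7 CPM (log2 fold change -0.88, SE 0.16, edgeR adjusted p = 0.00247). The collagen-binding integrin chain ITGA11 stood at 24.3 and 29.3 against 16.7 and 13.1 CPM, the protease inhibitor TIMP1 at 22.1 and 21.4 against 11.6 and 14.2 CPM, and MMP2 at 45.5 and 57.6 against 32.4 and 29.8 CPM. Their log2 fold changes were -0.86, -0.74 and -0.73 (edgeR adjusted p = 0.0296, 0.0155 and 0.0183), without overlap. ITGA11 lost its call with DESeq2 (0.185), with only the 24 h libraries fitted (0.0607), without T3 replicate 1 or 2 of 6 h (0.0533 and 0.0515) and without replicate 2 of vehicle or T3 at 24 h (0.189 and 0.0866). TIMP1 lost it with only the 24 h libraries fitted (0.101) and without T3 replicate 1 of 24 h (0.0529), and MMP2 with DESeq2 (0.111) and without vehicle or T3 replicate 2 of 24 h (0.155 and 0.0542). Of the 16 genes called that had a value after GC and length correction, 0 kept their call in that edgeR fit. PLOD1 was also the pathway gene whose T3 difference differed between the times (-0.89 on the log2 scale, SE 0.22, edgeR adjusted p = 0.0467), 1 of 53 against 1.84% of all genes tested. It lost that call with DESeq2 (0.0955), after GC and length correction (0.0807), without any 1 of the 4 libraries at 6 h (0.148 and 0.128 without vehicle replicates 1 and 2, 0.184 and 0.238 without T3 replicates 1 and 2) and without T3 replicate 1 or 2 of 24 h (0.0515 and 0.059).

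Between the times 25 of the 53 rose and 20 fell under each treatment, 84.9% of those tested against 64.5% of all genes with vehicle and 70.4% with T3. The crosslinking enzyme gene LOXL4 rose from 1.80 and 0.408 CPM to 17.8 and 18.9 CPM with vehicle, a log2 fold change of 3.91 with an SE of 0.45 (edgeR adjusted p = 9.13e-07). The collagen-cleaving cathepsin gene CTSK went from 3 counts to 74 with vehicle, a ratio of 12.8 (counting interval 4.21 to 63.4), and from 2 to 106 with T3, a ratio of 27.2 (7.33 to 227). The procollagen protease gene ADAMTS3 rose from 4 counts to 91 with vehicle (log2 fold change 3.54, edgeR adjusted p = 0.00117) and from 1 to 181 with T3, a ratio of 92.7 (16.4 to 3682). These calls held under every alternative. TLL1 was nearly lost, from 76.9 and 67.7 CPM to 0 and 0.149 CPM with vehicle, a ratio of 814 (145 to 32231), and from 882 counts to 0 with T3, at least 574-fold lower, while MMP2 rose by 4.42 on the log2 scale with T3 (edgeR adjusted p = 2.08e-09).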

How the data were processed

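RNA depleted of ribosomal RNA was sequenced from 8 Nthy-ORI libraries. The deposited values are raw read counts per gene symbol, 1 table per library, neither normalised nor pooled, with 5 summary rows that were left out. The submitters' processing notes name CASAVA 1.7, STAR 2.7, HTSeq, DESeq2 and the build hg38, with no roles. Annotation release and strand setting: not given in the sources used here.

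Counts were fitted in edgeR 4.0.16 (R 4.3.3) with TMM scaling, the filterByExpr filter and the robust quasi-likelihood F test, 1 coefficient per group over all 8 libraries (4 residual degrees of freedom, 14611 genes, biological coefficient of variation 13.1%). An adjusted p is Benjamini-Hochberg over all genes tested, with a threshold of 0.05, and calls are by it. CPM are TMM-scaled; the collagen shares use plain gene counts. SE is of the fit. Against a group with 0 counts a fold is a lower bound, set by 3 counts over the group; against 1 to 3 counts a ratio has its exact 95% counting interval.

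Genes with a mean of at least 5 CPM in a group were given by library, and up to 4 pathway changes per comparison, the largest among genes called with at least 5 CPM in a group, were named; PLOD2 and TLL1 at 6 h were named to complete the calls. The members and lists were chosen with earlier results of these data known. All 62 pathway entries were found, 1 by an older symbol. Positions, exon lengths and GC content came from GENCODE 29 (GRCh38), which may not be the authors' annotation. Alternatives were DESeq2 1.42.0 and its size factors, no filter, only the libraries compared, the replicate block, lowess offsets for GC and length (span 0.3, 12577 genes) and leaving out each library. The fit was tested on simulated data. Markers of endothelial, immune and C cells summed to at most 2.45 CPM in any library; those of thyroid follicular cells ran from 26.8 to 192 CPM.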

Additional observations from a re-analysis of the deposited data

Results flagged for a closer look

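The response of COL9A2 to T3 differed between the times, by the interaction term of the edgeR fit (adjusted p = 0.00305): it stood at 6.60 and 6.93 CPM with vehicle against 6.13 and 5.81 CPM with T3 at 6 h, and at 12.8 and 15.6 CPM against 0.463 and 1.15 CPM at 24 h as labelled. The response of COL4A3 also differed by that term (edgeR adjusted p = 0.0381), from 9.91 and 10.6 CPM against 8.29 and 6.21 CPM at 6 h to 18 counts against 0 at 24 h as labelled. KLF9 went against the labels at 24 h, and these directions refer to the libraries as labelled.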

How the results depend on the processing

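Of 51 collagen calls over the 5 comparisons, 31 kept their direction and their side of the threshold under every alternative that gave them a value: 3 for T3 at 6 h, 1 at 24 h, 12 and 14 for time with vehicle and with T3, and 1 for the difference of responses. At 6 h, 3 genes were called after GC and length correction, with or without the replicate block. At 24 h, 2 were called after that correction and 1 with the block added. For the difference of responses, 4 were called with no filter on low counts, 4 after the correction, 1 with DESeq2 and 1 with the replicate block. The shares of all genes called with no filter, with DESeq2 or with the block are not given here. Those counts therefore have no background beside them. Called fold changes that turned direction under the correction were COL6A2 and COL7A1 for T3 at 24 h (0.0302 and 0.0663; 0.0189 and 0.0806 with the replicate block added), COL27A1 between the times with vehicle (0.14), and with T3 COL7A1 (0.58; 0.65 with the block) and COL9A3 (0.21). Fold changes that were not called and turned direction included COL4A2, COL16A1 and COL18A1 for T3 at 24 h (0.16, 0.15 and 0.23), COL4A2 between the times (0.40 with vehicle and 0.67 with T3) and COL7A1 between the times with vehicle (0.67). Why the correction moved these values was not tested. The T3 collagen share at 6 h was 2252 per 1e6 with TMM-scaled totals and 2229.8 without the 20 most abundant genes, and at 24 h 2421 and 2807. The vehicle shares under these scalings are not given here. The T3 values alone cannot say whether the difference from vehicle was kept.

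Whether the same replicate number in 2 groups marks paired libraries is not given by the labels. Deviations of same-numbered libraries from their group means had correlations of -0.0036 at 6 h and -0.0437 at 24 h across genes. With 2 libraries per group these values cannot settle whether equal numbers share a culture or batch. With the replicate block 4 collagen genes were called at 6 h, 7 at 24 h, and 15 and 19 between the times. The shares of all genes called in that fit are not given here. The calls that the block ended were COL5A1 for T3 at 6 h (edgeR adjusted p = 0.0844), COL8A2 (0.064), COL9A2 (0.181) and COL25A1 (0.114) between the times with vehicle, COL8A2 with T3 (0.384) and COL4A3 for the difference of responses (0.0652). With the block and the correction together COL5A1 lost its calls between the times (0.0552 with vehicle and 0.0835 with T3). Depth limits the low genes: 3 counts corresponded to 0.366 to 1.19 CPM, so absence below that level cannot be told from low expression.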
